A study of Homo sapiens with 4 samples.

Results

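Small nucleolar RNAs (snoRNAs) and small Cajal body RNAs (scaRNAs) were followed in newly made RNA of K562, a cell line derived from chronic myeloid leukaemia that has erythroid features. The genes were chosen by name and by their measured reads: all genes with a symbol starting SNORD, SNORA or SCARNA in GENCODE 29, selected on a sum of at least 40 raw reads over the 4 libraries. Of 439 such genes in the count table, 102 reached that sum, out of 60279 genes in all. They were 45 C/D box genes (SNORD), 47 H/ACA box genes (SNORA) and 10 Cajal body genes (SCARNA). All 102 passed the filter on low counts and were among the 17322 genes tested. Because the read sum chose them, their levels are given as a description. The rule itself did not use the contrast between label times, but it was set with earlier results of these data known.

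Cells of 2 groups were compared, and 2 libraries were made for each. One group had been exposed to 1 mM 4-thiouridine for 15 min and the other for 5 min. Both carried the label UT and were the same line with no other agent named. RNA was profiled by TT-seq (transient transcriptome sequencing): RNA made during the pulse carries thiol groups and is pulled down through biotin. From each sample 150 µg of total RNA was mixed with 15 µg of Drosophila S2 cell RNA before shearing, so reads from fly genes set a common scale. Levels below are reads per 100000 fly reads of the same library, called fly-scaled levels. Nothing in the labels says that replicates came from separate cultures, so p-values measure only the spread between these samples, which may be technical.

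Most human snoRNAs lie in introns of other genes and are trimmed out of the excised intron by exonucleases. C/D box snoRNAs bind NOP56, NOP58, SNU13 and the methyltransferase fibrillarin (FBL) and guide ribose methylation. H/ACA box snoRNAs bind NHP2, NOP10, GAR1 and the pseudouridine synthase dyskerin (DKC1) and guide pseudouridylation. Their main targets are ribosomal RNAs. The scaRNAs carry C/D domains, H/ACA domains or both, guide modification of spliceosomal snRNAs, and are retained in Cajal bodies, where the protein WRAP53 binds a short CAB box in many of them.

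The sequences of 9 members are shown because the results turn on them. They are the GENCODE 29 transcripts on human build hg38, read 5′ to 3′ on the sense strand and written with T. The first set are C/D RNAs from hosts in which the small RNA and the host are set side by side below. SNORD12B (chr20:49280319-49280409, plus strand) and SNORD12C (chr20:49278940-49279028, plus strand) lie in introns of ZFAS1, and SNORD99 (chr1:28578749-28578822, minus strand) lies in an intron of SNHG12. Capitals mark the C box TGATGA where it lies in the first 20 nt and the D box CTGA where it lies in the last 15 nt.
SNORD12B: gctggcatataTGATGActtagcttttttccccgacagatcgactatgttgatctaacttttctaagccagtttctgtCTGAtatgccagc
SNORD12C: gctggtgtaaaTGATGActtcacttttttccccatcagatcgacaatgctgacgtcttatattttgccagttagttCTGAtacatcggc
SNORD99: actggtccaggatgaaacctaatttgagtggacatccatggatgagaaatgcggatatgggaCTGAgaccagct

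The H/ACA set holds SNORA71A (chr20:38427309-38427442, minus strand) and SNORA71D (chr20:38433865-38433998, minus strand), relatives from introns of SNHG17, and SNORA38 (chr6:31623079-31623210, plus strand) from an intron of PRRC2A. Capitals mark the H box ANANNA nearest the middle of the RNA, sought within 15 nt of it, and the ACA box in the last 8 nt.
SNORA71A: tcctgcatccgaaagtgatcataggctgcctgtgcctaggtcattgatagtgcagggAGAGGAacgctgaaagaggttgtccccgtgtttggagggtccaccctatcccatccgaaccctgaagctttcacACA
SNORA71D: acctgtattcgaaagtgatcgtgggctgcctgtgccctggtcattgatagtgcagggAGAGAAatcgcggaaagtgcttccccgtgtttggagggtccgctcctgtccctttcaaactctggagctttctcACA
SNORA38: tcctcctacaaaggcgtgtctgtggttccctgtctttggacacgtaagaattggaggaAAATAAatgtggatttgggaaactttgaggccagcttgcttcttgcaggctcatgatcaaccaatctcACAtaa

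The scaRNA set holds SCARNA18B (chr1:193057281-193057415, minus strand), an H/ACA type RNA in an intron of UCHL5, and SCARNA5 (chr2:233275727-233276002, plus strand) and SCARNA6 (chr2:233288676-233288940, plus strand), which lie in introns of ATG16L1. SCARNA5 and SCARNA6 are known as composite RNAs with a C/D and an H/ACA domain. Capitals mark any of the boxes above and the CAB box TGAG. At the 3′ ends of SCARNA5 and SCARNA6 the D box and a TGAG match overlap and are printed as one run.
SCARNA18B: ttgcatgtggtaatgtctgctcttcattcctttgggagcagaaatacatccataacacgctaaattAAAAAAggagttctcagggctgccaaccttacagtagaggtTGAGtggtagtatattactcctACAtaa
SCARNA5: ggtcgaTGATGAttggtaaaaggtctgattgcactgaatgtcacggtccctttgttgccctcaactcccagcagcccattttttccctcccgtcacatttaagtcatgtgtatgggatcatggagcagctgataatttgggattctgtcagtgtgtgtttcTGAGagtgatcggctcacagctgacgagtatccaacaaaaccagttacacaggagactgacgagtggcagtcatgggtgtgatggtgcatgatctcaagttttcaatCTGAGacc
SCARNA6: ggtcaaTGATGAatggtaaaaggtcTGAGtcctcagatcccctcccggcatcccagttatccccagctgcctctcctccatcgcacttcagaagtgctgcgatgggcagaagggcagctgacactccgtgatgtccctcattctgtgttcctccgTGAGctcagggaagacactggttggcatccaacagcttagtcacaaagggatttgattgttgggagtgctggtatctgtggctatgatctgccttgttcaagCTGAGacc

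The letters of the 102 RNAs followed the class names. The read minimum did not use the letters, but the classes are named after these boxes. The match is thus a description and not an independent check. Among the C/D members, 32 of 45 (71.1%) held the C box letters in the window and 43 of 45 (95.6%) held the D box letters. In 205973 other GENCODE transcripts the same windows held them in 0.481% and 7.07%, on the sense strand only. SNORD99 is a C/D member whose first 20 nt lack an exact TGATGA. Among the H/ACA members, 39 of 47 (83.0%) held an H box match and 45 of 47 (95.7%) an ACA in the last 8 nt, against 27.3% and 11.1% of other transcripts. None of the 47 held the C or the D box letters. The 10 Cajal body members were mixed: 3 held the C box, 4 the D box, 5 the H box and 6 the ACA. TGAG occurred anywhere in 8 of those 10 RNAs, but also in 32 of the 45 C/D members (71.1%) and 23 of the 47 H/ACA members (48.9%). Such a short run was also present in 49.3% of other transcripts, searched over a stretch about as long as an H/ACA RNA and so shorter than the long scaRNAs. A match is a description of letters and not evidence of a working site.

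Sequencing gave 5051370 and 4726327 human reads at 15 min and 4339981 and 4695405 at 5 min, with 318710 and 308978 fly reads at 15 min and 897018 and 803914 at 5 min. The members held 0.188% and 0.193% of human reads at 15 min and 0.155% and 0.144% at 5 min. All 10 of 10 K562 and erythroid markers had reads, with sums of 1783 to 1832 CPM at 15 min and 2412 to 2593 CPM at 5 min. Markers of other cell types summed to less. The highest single marker had a mean of 1274 CPM in the K562 and erythroid list and 45.4 CPM in the epithelial list. T cell markers (3 of 3 with reads) summed to 9.30 to 9.73 CPM at 15 min and 13.6 to 16.4 CPM at 5 min. B cell markers (2 of 3, MS4A1 at 0) summed to 10.5 to 10.6 CPM at 15 min and 2.56 to 4.61 CPM at 5 min. Monocyte markers (3 of 3) summed to 22.2 to 22.6 CPM at 15 min and 20.3 to 21.5 CPM at 5 min, and fibroblast markers (3 of 3) to 0.792 to 1.48 CPM at 15 min and 2.34 to 2.53 CPM at 5 min. Epithelial markers (2 of 3, KRT5 at 0) summed to 33.9 to 35.4 CPM at 15 min and 53.2 to 59.4 CPM at 5 min, and the part of these lists in the results was not tested.

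Whether a gene had any reads went with where it lies. Of the 439 matching genes, 266 had 0 reads in all 4 libraries, which allows up to 3 reads in a library. Of 266 genes lying wholly between the exons of a same-strand host, 90 (33.8%) reached 40 reads and 123 had 0. Among 147 genes that share at least 1 base with an exon of such a host, 7 (4.76%) reached 40 reads and 128 had 0. Of 26 independent genes, with no same-strand host, 5 (19.2%) reached 40 reads and 15 had 0. By class, 202 of 274 C/D genes, 60 of 142 H/ACA genes and 4 of 23 Cajal body genes had 0 reads. The minimum of 40 reads was reached by 16.4%, 33.1% and 43.5% of these classes. SNORA73A, a snoRNA needed for ribosomal RNA processing, shares 206 bases with exons of SNHG3 and had 0 reads, while SNORA73B in an intron of the same host had 5418. SNORD118, which guides processing of the large-subunit ribosomal RNA, shares 134 bases with TMEM107 exons and had 0 reads. SCARNA2, which shares 420 bases with exons of AL356488.2, also had 0 reads, as did SNORD13, which is independent and shares no host exon. The counting rule for reads over more than 1 gene is not stated in the labels, and its part in these zeros was not tested. Just inside the minimum lay SCARNA14 and SNORD7 with 41 reads each and SNORD71 with 43, and just outside lay SNORA2A with 39, SNORD105 with 38 and SNORA22C with 37.

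Between 5 and 15 min of labelling almost all members gained labelled RNA relative to the fly reads. Summed over the 102 members the fly-scaled level was 2979 and 2954 at 15 min, against 749 and 842 at 5 min, a ratio of 3.73 between the means. In the edgeR quasi-likelihood test with Benjamini-Hochberg adjustment over all genes at 0.05, 98 of 102 members rose. Such a rise was general, since 98.4% of all genes tested were called higher. Both 15 min libraries lay above both 5 min libraries for 99 members, against 99.0% of all genes. The share of members that rose was thus near that of all genes. The median fold of the members was 4.05 (quartiles 3.40 and 5.17, range 0.634 to 7.92), and that of all genes tested was 3.20 (quartiles 2.57 and 4.01). The pulse was 3 times as long, and 86 of 102 members (84.3%) gained more than 3-fold, against 58.1% of all genes tested. Short genes in general came closer. Of the genes that are not members, 75.7% did so under 100 nt, 72.1% from 100 to 150 nt and 74.2% over 150 to 250 nt. The members in these bins of annotated length reached 92.3%, 93.8% and 55.6%. Over 250 nt it was 57.4% of the genes that are not members and 0 members. In bulk RNA, more cells taking up label and more labelled RNA per cell cannot be told apart.

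Taken as a share of all labelled human RNA, with TMM scaling in place of fly reads, 33 members rose and 5 fell in the same test. Of all genes tested 16.8% rose and 21.3% fell on that scale. The median share change of the members was 0.37 on the log2 scale, and that of all genes tested was 0.03. For genes that are not members it was 0.22 under 100 nt, 0.21 from 100 to 150 nt and 0.31 over 150 to 250 nt. Members in these bins had medians of 0.36, 0.47 and 0.22. The 5 members that fell were SCARNA5, SCARNA6, SCARNA13, SCARNA9 and SNORA33. With DESeq2 in place of edgeR the share calls were 12 higher and 3 lower.

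**Figure D1:**
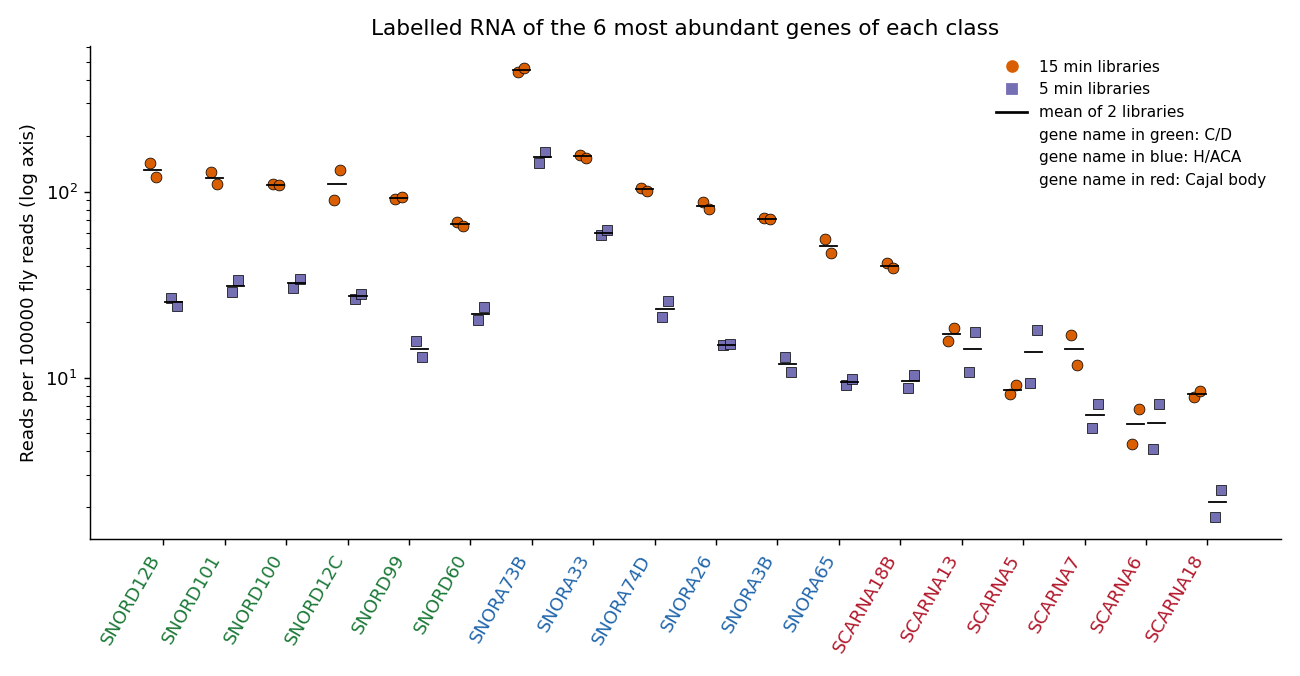
Fly-scaled level (reads per 100000 fly reads, log axis) of the 6 members with the highest mean level in each class, with 15 min libraries as circles left of 5 min libraries as squares and a bar at the mean of 2 libraries. SNORA73B is the highest at a mean of 449.9 at 15 min and 153 at 5 min, and the points of SCARNA13 and SCARNA6 overlap between label times while those of the C/D and H/ACA genes shown do not.

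The 45 C/D members all rose, as did 98.4% of all genes tested, with a median fold of 3.85 (quartiles 3.32 and 4.61, range 1.91 to 7.39). On the share scale 12 rose and none fell, while 16.8% of all genes tested rose and 21.3% fell. Their summed fly-scaled level was 1309 and 1297 at 15 min, against 314 and 337 at 5 min. SNORD12B, from the noncoding host ZFAS1, was the most abundant. Its fly-scaled levels were 142 and 119 at 15 min, against 26.9 and 24.4 at 5 min. The groups lay far apart and the fold was 5.10 (log2 2.35, SE 0.177, adjusted p = 7.76e-38 by edgeR). SNORD12C from the same host had fly-scaled levels of 90.4 and 130.4 at 15 min, against 26.5 and 28.1 at 5 min. The 15 min libraries differed from each other more than for SNORD12B, the groups did not overlap, and the fold was 4.04.

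SNORD101 and SNORD100 lie in introns of RPS12, which encodes a small-subunit ribosomal protein. SNORD101 had fly-scaled levels of 127 and 109 at 15 min, against 28.9 and 33.5 at 5 min, a 3.80-fold gain. SNORD100 had 110.1 and 108 at 15 min, against 30.4 and 33.8 at 5 min, a 3.40-fold gain. Both were separated by label time, and of the pair SNORD101 was called higher in share (log2 0.28, SE 0.0942, adjusted p = 0.0113 by edgeR), while SNORD100 had a share change of 0.11 (SE 0.0952). SNORD60, from SNHG19, had fly-scaled levels of 68.7 and 65.1 at 15 min, against 20.3 and 23.9 at 5 min, a 3.03-fold gain that was below the median of all genes.

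Of the C/D members with the largest folds, SNORD99 was also among the 6 most abundant, and the others had lower levels. SNORD99, whose host is SNHG12, had fly-scaled levels of 91.3 and 93.9 at 15 min, against 15.7 and 12.9 at 5 min. Its replicates lay close together, the fold was 6.44, and it was called higher in share (log2 1.03, SE 0.119, adjusted p = 2.54e-16 by edgeR). SNORD53, in an intron of WDR43, had fly-scaled levels of 12.6 and 11.7 at 15 min, against 1.90 and 1.37 at 5 min, a 7.28-fold gain. It was called higher in share (log2 1.22, adjusted p = 0.000747 by edgeR), but not without 5 min replicate 2 (adjusted p = 0.0719). SNORD88A, in an intron of C19orf48, had levels of 30.4 and 26.9 at 15 min and 4.68 and 5.10 at 5 min, a 5.85-fold gain. SNORD69, in an intron of GNL3, rested on 23 and 35 reads at 15 min and 13 and 8 at 5 min and gained 7.39-fold. Its share gain (log2 1.24, adjusted p = 0.00303 by edgeR) was lost without 15 min replicate 2 (adjusted p = 0.202) and without 5 min replicate 2 (adjusted p = 0.131).

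The lowest C/D folds with at least 100 reads were those of SNORD17, SNORD72 and SNORD3B-2. SNORD17, an unusually long C/D snoRNA of 237 nt in an intron of SNX5, had fly-scaled levels of 8.16 and 7.44 at 15 min, against 3.46 and 3.73 at 5 min, and rose by 1.12 on the log2 scale (SE 0.322). SNORD72, in an intron of RPL37, had 7.22 and 8.74 at 15 min, against 2.90 and 3.98 at 5 min, and rose by 1.22 (SE 0.324). In both the groups stayed apart. Neither was called in share, with changes of -0.53 (SE 0.294) for SNORD17 and -0.43 (SE 0.297) for SNORD72.

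All 47 H/ACA members rose as well, against 98.4% of all genes tested, with a median fold of 4.37 (quartiles 3.67 and 5.49, range 2.11 to 7.92). On the share scale 20 rose and 1 fell, while 16.8% of all genes tested rose and 21.3% fell. Their summed fly-scaled level was 1557 and 1543 at 15 min, against 389.5 and 436 at 5 min. SNORA73B alone carried much of that sum. This RNA of 204 nt, a processing snoRNA rather than a known modification guide, had 1398 and 1425 reads at 15 min, against 1288 and 1307 reads at 5 min. Per 100000 fly reads that was 439 and 461 at 15 min, against 144 and 163 at 5 min. The fold of 2.94 (log2 1.56, SE 0.170, adjusted p = 2.46e-19 by edgeR) was below the median of all genes, and its share change was -0.09 (SE 0.0620).

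SNORA33, also intronic in RPS12, was the second most abundant member and the H/ACA gene that fell in share. Its fly-scaled levels were 158 and 151 at 15 min, against 58.4 and 61.9 at 5 min. The replicates were tight, the fold was 2.57, and the share change was -0.29 (SE 0.0782, adjusted p = 0.000982 by edgeR). With DESeq2 that share change was -0.30 with an adjusted p of 0.0577. SNORA33 (2.57-fold), SNORD100 (3.40-fold) and SNORD101 (3.80-fold) thus differed although they share 1 host, which itself rose 2.44-fold.

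Further abundant H/ACA members had larger folds. SNORA74D had fly-scaled levels of 104 and 101 at 15 min, against 21.2 and 25.7 at 5 min, and rose 4.39-fold. SNORA26, in an intron of DANCR, had 87.5 and 80.3 at 15 min, against 14.9 and 15.2 at 5 min, and rose 5.57-fold. The libraries of each label time were close together in both genes. SNORA3B, in an intron of RPL27A, had 72.2 and 71.2 at 15 min, against 12.8 and 10.7 at 5 min, and rose 6.07-fold (share log2 0.94, SE 0.133, adjusted p = 2.55e-11 by edgeR). SNORA65, in an intron of RPL12, had 55.5 and 46.9 at 15 min, against 9.14 and 9.83 at 5 min, and rose 5.40-fold.

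SNORA38 had the largest H/ACA fold with at least 100 reads. Its fly-scaled levels were 24.8 and 26.2 at 15 min, against 3.57 and 3.36 at 5 min. The groups were widely apart with a fold of 7.31 (log2 2.87, SE 0.253, adjusted p = 1.96e-28 by edgeR) and a share gain of 1.22 (SE 0.221). SNORA84, in an intron of IARS, had 26.7 and 25.9 at 15 min, against 4.91 and 3.61 at 5 min, and rose 6.11-fold. Folds of 7.92 for SNORA7B and 7.54 for SNORA30 were the highest by value, but rested on few reads. SNORA7B had 21 and 18 reads at 15 min, against 4 and 9 at 5 min, and shares 81.2% of its 12-mers with SNORA7A, so its reads may be split between copies. SNORA30 had 33 and 29 reads at 15 min, against 14 and 8 at 5 min.

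The SNORA71 relatives show how much members of 1 host differed. SNORA71A, SNORA71C and SNORA71D are all 134 nt long and come from introns of SNHG17. SNORA71A had fly-scaled levels of 50.2 and 42.4 at 15 min, against 11.5 and 13.3 at 5 min, a fold of 3.74 (log2 1.90, SE 0.200). SNORA71C had 43.3 and 42.7 at 15 min, against 7.47 and 7.71 at 5 min, a fold of 5.66 (log2 2.50, SE 0.213). SNORA71D had 33.9 and 36.9 at 15 min, against 5.02 and 6.22 at 5 min, a fold of 6.30 (log2 2.66, SE 0.226). The order of the levels ran SNORA71A, SNORA71C, SNORA71D and the order of the folds ran the other way. The differences between these folds were not tested. As printed above, SNORA71A and SNORA71D share long stretches, but only 18.7% of the 12-mers of SNORA71A occur in SNORA71D. The share gain of SNORA71D was 1.01 on the log2 scale (adjusted p = 4.21e-07 by edgeR).

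The Cajal body RNAs split. Of 10 members 6 rose, 1 fell (SCARNA5) and 3 were not called (SCARNA13, SCARNA6 and SCARNA9). Over all genes tested 98.4% were called higher and 0.0115% lower on the fly scale, and 16.8% rose and 21.3% fell in share. The class median was 2.94-fold, the quartiles were 1.28 and 3.81, and on the share scale 1 rose and 4 fell. The summed fly-scaled level of the class was 113 and 114 at 15 min, against 45.6 and 70.0 at 5 min. The 5 min libraries stood further apart than in the other classes.

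**Figure D2:**
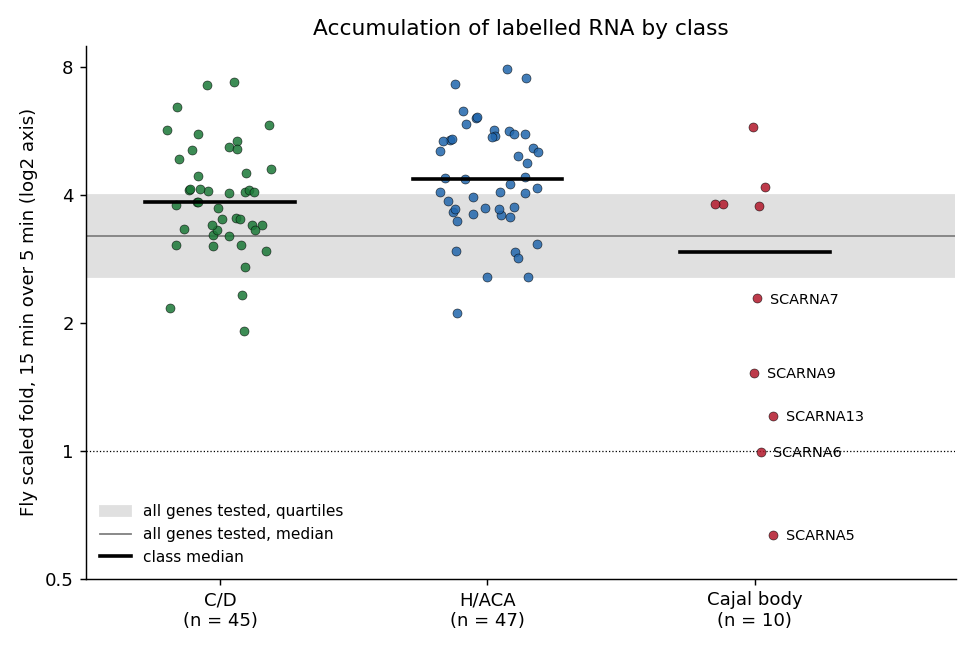
Fly-scaled fold of 15 min over 5 min (log2 axis) for each member, by class, with a black bar at the class median and a grey band and line for the quartiles and median of all 17322 genes tested. The C/D and H/ACA medians (3.85 and 4.37) lie above the line at 3.20, and 5 Cajal body genes lie below the grey band, from SCARNA7 at 2.29 down to SCARNA5 at 0.634.

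SCARNA5 was the 1 member called lower on the fly scale after the longer pulse. None of the 4 libraries lacked 4-thiouridine, so reads from unlabelled RNA in the pull-down were not measured. SCARNA5 had 26 and 28 reads at 15 min, against 84 and 145 reads at 5 min. Its fly-scaled levels were 8.16 and 9.06 at 15 min, against 9.36 and 18.0 at 5 min. The 15 min libraries were close together and both lay below the 5 min ones, which differed from each other by more than the group means did. The fold was 0.634 (log2 -0.66, SE 0.258, adjusted p = 0.0113 by edgeR). This call was lost with DESeq2 (adjusted p = 0.116) and without 15 min replicate 1 (adjusted p = 0.152), 15 min replicate 2 (adjusted p = 0.0760) or 5 min replicate 2 (log2 -0.12, adjusted p = 0.656). The share change of -2.29 (SE 0.205, adjusted p = 4.13e-27 by edgeR) kept its call in each of those settings.

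SCARNA6, further downstream in the same host, had 14 and 21 reads at 15 min, against 37 and 58 at 5 min. Its fly-scaled levels were 4.39 and 6.80 at 15 min, against 4.12 and 7.21 at 5 min. The groups overlapped and the fold of 0.994 was not called (adjusted p = 0.978 by edgeR), while its share fell by 1.65 on the log2 scale (SE 0.284, adjusted p = 7.53e-08 by edgeR). The sign of its fly-scaled change turned without 15 min replicate 1 (log2 0.27) and without 5 min replicate 2 (log2 0.43), neither of them called. The host ATG16L1, an autophagy gene, had 457 and 403 reads at 15 min, against 259 and 303 at 5 min. It rose 4.12-fold on the fly scale (log2 2.04, adjusted p = 2.59e-30 by edgeR). Both scaRNAs had folds below that of the gene around them.

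SCARNA13, in an intron of SNHG10, had fly-scaled levels of 15.7 and 18.4 at 15 min, against 10.7 and 17.7 at 5 min. The groups overlapped and the fold of 1.21 was not called (log2 0.27, SE 0.225, adjusted p = 0.224 by edgeR). The 5 min libraries decided this value: the log2 change was -0.051 without 5 min replicate 1 (adjusted p = 0.806) and 0.67 without 5 min replicate 2 (adjusted p = 0.00312). Its share fell by 1.37 on the log2 scale (SE 0.175), whereas SNHG10 itself rose 3.47-fold on the fly scale. SCARNA9, in an intron of CEP295, had 14 and 12 reads at 15 min, against 20 and 26 at 5 min. Its fold of 1.52 was not called (adjusted p = 0.131 by edgeR) and its share change of -1.03 was called (adjusted p = 0.0162), a call that was lost without 15 min replicate 1 (adjusted p = 0.0601), 15 min replicate 2 (adjusted p = 0.0808) or 5 min replicate 2 (adjusted p = 0.168). SCARNA7, in an intron of KPNA4, had fly-scaled levels of 16.9 and 11.7 at 15 min, against 5.35 and 7.21 at 5 min, and rose 2.29-fold.

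The other 5 scaRNAs all rose. SCARNA18B, the most abundant scaRNA, had fly-scaled levels of 41.1 and 38.8 at 15 min, against 8.81 and 10.3 at 5 min. Its replicates were tight, it rose 4.18-fold (log2 2.06, SE 0.209), and it was the scaRNA called higher in share (log2 0.41, adjusted p = 0.0266 by edgeR). SCARNA18 had 7.84 and 8.41 at 15 min, against 1.78 and 2.49 at 5 min, and rose 3.81-fold. SCARNA1, SCARNA3 and SCARNA14 rose 5.79-, 3.81- and 3.77-fold.

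Annotated length separated these scaRNAs, in a split chosen after the values were seen. The 5 Cajal body RNAs over 250 nt (SCARNA5, SCARNA6, SCARNA13, SCARNA7 and SCARNA9, 265 to 353 nt) had a median fold of 1.21 and 1 of them rose. Their summed fly-scaled level was 49.6 and 49.8 at 15 min, against 31.8 and 53.4 at 5 min, and the groups overlapped. The 5 up to 250 nt (134 to 166 nt) all rose, with a median of 3.81 and sums of 63.7 and 63.8 at 15 min, against 13.8 and 16.7 at 5 min. Over all members the median fold was 4.04 under 100 nt (n = 39), 4.31 from 100 to 150 nt (n = 48), 3.64 over 150 and up to 250 nt (n = 9) and 1.36 over 250 nt (n = 6). The last bin holds SNORD3B-2 beside the 5 long scaRNAs, and its 791 nt of annotated exon may exceed the length of its RNA. For the genes that are not members the medians were 3.64, 3.61, 3.88 and 3.18 in the same bins. Within the 96 members up to 250 nt, Spearman's rho between length and log2 fold was 0.06, a description across genes that share the same 4 libraries. The 97 members other than the long scaRNAs all rose, which follows from the split, since the long scaRNAs held every member not called higher. Of all genes tested, 98.4% were called higher.

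**Figure D3:**
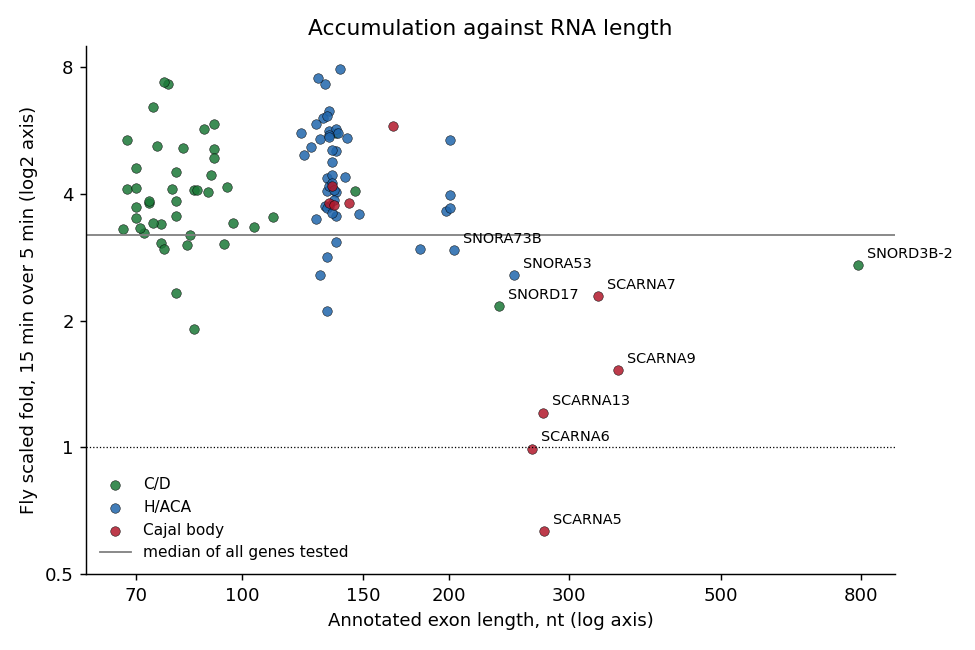
Fly-scaled fold of 15 min over 5 min (log2 axis) against annotated exon length (nt, log axis) for the 102 members, coloured by class, with a grey line at the median of all genes tested (3.20). Members under 150 nt spread between 1.91 and 7.92. The 6 members annotated over 250 nt, 5 scaRNAs and SNORD3B-2, all lie below the grey line. The length of SNORD3B-2 is the summed exons of its gene and may exceed that of its RNA.

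Location was compared by counts and medians. Of all genes tested, 98.4% rose on the fly scale, and 16.8% rose and 21.3% fell in share. The 90 intronic members had a median fold of 4.07 (quartiles 3.49 and 5.19), with 86 that rose and 1 that fell. All 7 members sharing bases with a host exon rose, with a median of 3.51. All 5 independent members rose too, with a median of 3.32 and a range of 2.72 to 5.87. With so few exonic and independent genes the ranges overlap widely, and no difference by location is drawn from them. In the share test 31 intronic members rose and 5 fell, 2 independent members rose, and no exonic member was called.

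SNORD3B-2, a copy of the U3 snoRNA that guides early cleavage of the ribosomal RNA precursor, was the independent member that lies in no gene on either strand. Its annotated exons sum to 791 nt, which may exceed the length of the RNA. SNORD3B-2 had 57 and 78 reads at 15 min, against 56 and 78 reads at 5 min. On the fly scale that was 17.9 and 25.2 at 15 min, against 6.24 and 9.70 at 5 min, a 2.72-fold rise (log2 1.44, SE 0.231) with separated groups. All of its 12-mers occur in SNORD3B-1, which had 1 read, so the level of U3 cannot be assigned to 1 copy. SNORD3A, another copy, had 0 reads.

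The other 4 independent members lie opposite to a longer gene, and without a stated strand setting their reads cannot be told from those of that gene. SNORA70G, opposite RAP1B, had fly-scaled levels of 12.2 and 17.5 at 15 min, against 2.01 and 3.48 at 5 min, and rose 5.43-fold. SNORD65C, opposite IGF2BP3, had 10.4 and 10.0 at 15 min, against 3.12 and 2.99 at 5 min, and rose 3.32-fold. SNORA1B, opposite LYN, had 7.53 and 11.7 at 15 min, against 2.90 and 3.86 at 5 min, and rose 2.84-fold. The groups did not overlap in any of them. SNORA11F, opposite NUDT13, had fewer than 100 reads and rose 5.87-fold.

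A same-strand host was counted for 95 members, in 77 host genes. The host of SNORA74D and SNORA74A was not analysed here. In 75 of the 95 the fold of the small RNA was above that of its host and in 20 it was below, with a median difference of 0.47 on the log2 scale. In the 78 members with a protein-coding host, 65 lay above it and the median difference was 0.61. In the 17 with a noncoding host, 10 lay above it and the median difference was 0.09. The members of the 2 kinds of host were alike in median fold (4.06 with coding and 4.04 with noncoding hosts), and it was the hosts that differed, with medians of 2.83 for coding and 4.57 for noncoding hosts. These differences were not tested, and reads of unspliced host RNA over the small RNA's bases cannot be told from reads of the small RNA itself.

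Pairs of host and member are set side by side here. ZFAS1, the host of SNORD12B and SNORD12C, rose 4.81-fold, between the 5.10 of SNORD12B and the 4.04 of SNORD12C. SNHG12 rose 5.25-fold and its SNORD99 6.44-fold. SNHG3 rose 3.23-fold and its SNORA73B 2.94-fold. Among coding hosts, PRRC2A rose 2.04-fold against 7.31-fold for SNORA38, and UCHL5 rose 2.07-fold against 4.18-fold for SCARNA18B. Further hosts of the abundant members were the noncoding DANCR (3.37-fold) and SNHG19 (4.57-fold) and the coding RPL27A (3.30-fold), RPL12 (3.61-fold) and KPNA4 (2.76-fold). The folds of RPL12 and RPL27A were above that of the noncoding SNHG3 in value.

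**Figure D4:**
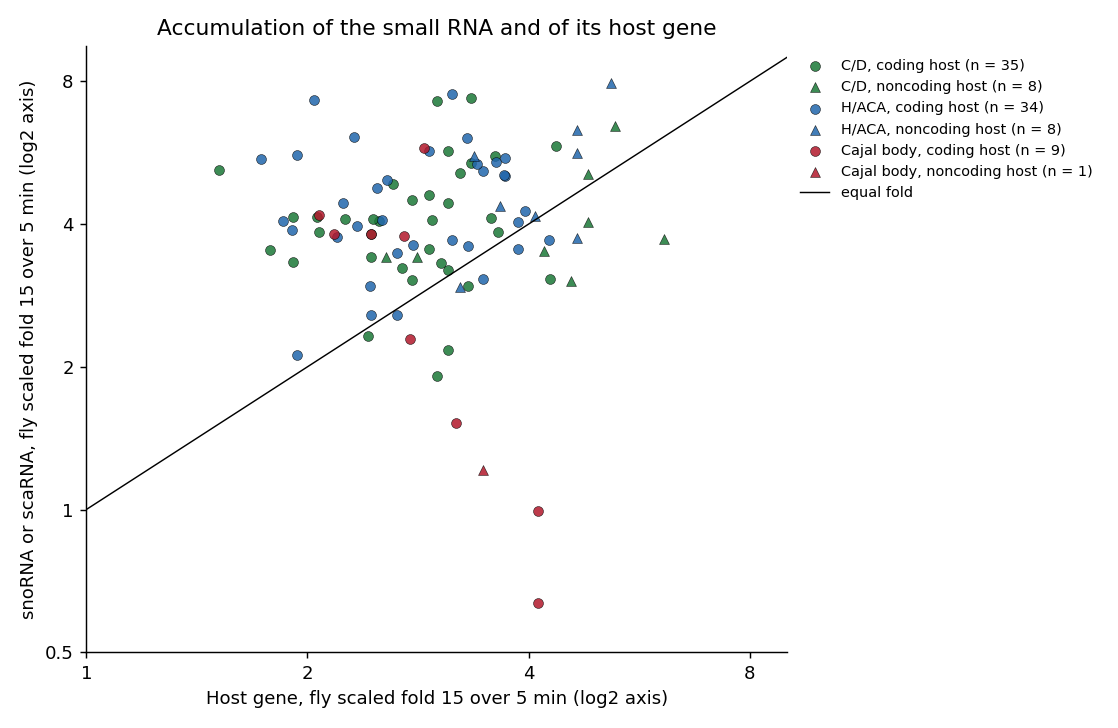
Fly-scaled fold of 15 min over 5 min of each small RNA (vertical, log2 axis) against that of its host (horizontal, log2 axis) for 95 members, circles for coding and triangles for noncoding hosts, with the line of equal fold. Of these, 75 points lie above the line, and the 2 scaRNAs of ATG16L1 lie lowest at a host fold of 4.12.

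Shared hosts allow a comparison within 1 transcription unit. There were 14 hosts with at least 2 members, holding 32 members. In WDR43, a gene for a ribosome biogenesis factor, SNORD53 rose 7.28-fold and SNORD92 1.91-fold while the host rose by 1.58 on the log2 scale, between the 2.86 of SNORD53 and the 0.94 of SNORD92. SNORD92 had 10 and 12 reads at 15 min, against 16 and 15 at 5 min. NCL, the nucleolin gene, rose 2.93-fold, and its SNORA75, SNORD82 and SNORD20 rose 5.69-, 4.61- and 3.54-fold. NOP58, which encodes a core protein of C/D particles, rose 3.11-fold, and SNORD70, SNORD11B and SNORD11 in its introns rose 5.69-, 4.44- and 3.20-fold. Over all 95 pairs Spearman's rho between the log2 folds of member and host was 0.10, given as a description across genes that share libraries and hosts.

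Read density was compared per 100 nt, using the small RNA's length and the exonic length of its host. The counted feature is not stated, so these lengths may not match the bases counted, and the densities are a description. At 15 min 67 of 95 members had a higher density than their host and at 5 min 42 had. The median ratio of member to host density was 1.40 at 15 min and 0.911 at 5 min. SNORA73B had 221 reads per 100000 fly reads and 100 nt at 15 min and 75.0 at 5 min, against 120.0 at 15 min and 37.2 at 5 min for SNHG3. SNORD12B had 144 at 15 min and 28.2 at 5 min, against 26.0 at 15 min and 5.41 at 5 min for ZFAS1. SCARNA5 had 3.12 at 15 min and 4.96 at 5 min, whereas ATG16L1 had 2.26 at 15 min and 0.550 at 5 min. SCARNA5 was thus denser than its host at both times, most at 5 min. Among members in noncoding hosts 15 of 17 were denser than the host at either time.

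No member has a value in the authors' deposited table of production rates, which lists 11777 genes, so their rates are described through the hosts. Of the 77 hosts, 72 have a rate in the authors' deposited table, 68 of them above its median of 0.0114 and 53 in its top 10%. In the authors' deposited table RPS12 has a rate of 0.974, SNHG1 (host of SNORD30) 0.840 and ZFAS1 0.349. ATG16L1, host of SCARNA5 and SCARNA6, has a rate of 0.0111 in the authors' deposited table, at percentile 49.1. No scale or replicate error is given for these rates. Members were chosen on their reads, so the rates of their hosts are given as a description.

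Genes for proteins of snoRNA biogenesis were followed beside the members. All 33 listed genes were tested and rose on the fly scale, as did 98.4% of all genes tested. Their median fold was 2.81 (range 1.60 to 4.39), against the 3.20 of all genes tested. On the share scale 3 rose, 13 fell and the others were not called, while 16.8% of all genes tested rose and 21.3% fell. WRAP53, the CAB box binding protein, had fly-scaled levels of 70.0 and 72.2 at 15 min, against 13.6 and 19.0 at 5 min, and its share rose (log2 0.48, SE 0.124, adjusted p = 0.000554 by edgeR). ZNHIT3, an assembly factor of C/D particles, and NOP56, a C/D core protein, also rose in share (log2 0.49 and 0.18). FBL had 235 and 206 at 15 min, against 118 and 136 at 5 min, and its share fell by 0.85 on the log2 scale (SE 0.0673). RUVBL2, an ATPase of the assembly machinery, fell in share by 0.97, NOP10 of the H/ACA core by 0.55 and NOLC1, a nucleolar and Cajal body phosphoprotein, by 0.55. The exonucleases XRN2 and EXOSC10, which trim intronic snoRNAs, fell in share by 0.54 and 0.45. Of the 4 H/ACA core genes 3 fell in share and none rose, and of the 4 C/D core genes 2 fell and NOP56 rose.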

How the data were processed

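The data are 4 TT-seq libraries of K562 cells, 2 per label time. The authors deposited read counts for human genes and for fly genes, raw and without normalization. They also deposited 1 production rate per gene, a score whose scale the file headers do not give. The submitters' processing notes name edgeR, Subread 2.0.1 with featureCounts, STAR 2.7 and bcl2fastq 2.17.1.14, and the builds hg38 and dm6. Neither the strand setting nor the counted feature is stated there, so overlapping genes have uncertain counts. Symbols, hosts, lengths and transcript sequences came from GENCODE 29, in which 56590 of 60279 human identifiers were found.

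Counts were tested with edgeR 4.0.16 (filterByExpr with a minimum count of 10, robust quasi-likelihood fit, label time as the only term, Benjamini-Hochberg adjustment over 17322 genes). Library size was the fly read total (4 values, 308978 to 897018), or for the share the human total with TMM factors. Standard errors came from the F statistic, whose spread is shared across genes. The same fits were tested on simulated data. DESeq2 1.42.0, no filter, other scalings, a replicate block and leaving out each library were alternatives. With 2 libraries per time an exact permutation test of a single value cannot go below p = 0.333, so none is given. Members whose 12-mers occur at 50% or more in another snoRNA or scaRNA (9 of 102) were counted as having a near-identical copy.

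The members and lists were chosen with earlier results of these data known. Named members were, per class, the 6 highest levels and the 3 highest and 3 lowest fly-scaled folds among those with at least 100 reads. Independent members with at least 100 reads, members called lower or called in share (at most 10 each way), genes next to the read minimum, hosts of the abundant members and called genes of the biogenesis list (at most 6 each way) were also named. Genes outside this rule (SNORA71C, the members of shared hosts other than RPS12, the shorter scaRNAs, SNORA11F and the genes with 0 reads) were picked after their values were seen. No molecular identifiers are named, so limits from counts cover counting error alone.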

Additional observations from a re-analysis of the deposited data

How the results depend on the processing

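The count of members called higher on the fly scale was 98, 96 to 97 in the alternatives that kept all libraries and 95 to 98 when 1 library was left out. The number called lower was 1 (SCARNA5), 0 with DESeq2, and 0 to 1 when 1 library was left out. On the share scale 33 members rose and 5 fell, and with DESeq2 12 rose and 3 fell, while 22 to 25 rose and 4 to 5 fell when 1 library was left out. The class medians of the log2 fold depended on the setting. The C/D median was 1.95, with 1.87 to 2.07 when 1 library was left out. The H/ACA median was 2.13, with 2.06 to 2.29 when 1 library was left out and 2.28 at 100 reads or more (n = 30). Both the 2.07 and the 2.29 came without 5 min replicate 2. The ranges of these 2 classes met across settings. Whichever library was left out, the H/ACA median was above the C/D median of the same setting, a difference that was not tested. The Cajal body median of 1.55 was 0.27 at 100 reads or more (n = 5), where SCARNA18B is the 1 short scaRNA left. Leaving out members with near-identical copies or exonic members, chosen after seeing the data, gave 1.98 for C/D in both cases, 2.13 for H/ACA in both and 1.55 for Cajal body RNAs, none of which is exonic or has such a copy. The exonic median of 1.81 ran from 1.49 to 1.92 when 1 library was left out. The independent median of 1.73 was 1.44 with hosts on either strand, where SNORD3B-2 alone is left (n = 1). Among single genes, the fly-scaled log2 change of SCARNA13 (0.27) ranged from -0.051 without 5 min replicate 1 to 0.67 without 5 min replicate 2, where it was called. That of SCARNA6 (-0.0088) ranged from -0.37 without 5 min replicate 1 to 0.43 without 5 min replicate 2, was 0.27 without 15 min replicate 1, and was called in none of these. The cause of these changes was not tested. Deviations of replicate 1 from its label-time mean had a correlation of 0.07 over genes between 15 and 5 min. Replicate 2 mirrors replicate 1 when a label time has 2 libraries, so this value cannot decide whether the numbers pair the samples. The main fit did not pair them. With the replicate number as a block 97 members rose and 1 fell on the fly scale, and 33 rose and 5 fell in share. Depth limits the members near 40 reads, where a call rests on about 10 reads per library.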
